A study of Arabidopsis thaliana with 2 samples.

Results

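The genes described here are 10 nuclear genes of Arabidopsis thaliana that encode mobile or membrane-bound electron carriers of the chloroplast and mitochondrion. They are the ferredoxin genes FD1, FD2, FD3, FDC1 and FDC2, the leaf ferredoxin-NADP reductase genes FNR1 and FNR2, the Rieske protein gene PETC and the cytochrome c genes CYTC-1 and CYTC-2. They were taken by their TAIR identifiers from a table of 18615 named genes, and 10 of 10 were found there under descriptions that match these names. Shoots of seedlings grown on diluted Murashige and Skoog medium without sucrose were compared between 1 wild-type library (accession Col-0) and 1 library of the bts-1 mutant of BTS (BRUTUS). BTS encodes an E3 ubiquitin ligase that restrains the iron deficiency response. The labels state neither the age of the plants, nor the kind of lesion in bts-1, nor the number of plants per library. With 1 library per genotype there is no replicate check, no standard deviation and no p-value, and each difference below is a difference between 2 libraries.

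In the thylakoid, electrons pass from the cytochrome b6f complex, whose Rieske subunit PETC carries an iron-sulfur cluster, through plastocyanin and photosystem I to ferredoxin. Ferredoxin is a small stromal protein with an iron-sulfur cluster held by cysteines. The flavoenzyme FNR, which holds no iron, uses reduced ferredoxin to make NADPH, and other enzymes draw on ferredoxin for nitrogen, sulfur and pigment metabolism. In mitochondria the haem protein cytochrome c carries electrons from complex III to complex IV. The iron in these proteins is drawn from the supply that BTS helps to regulate.

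A stretch of the cluster or haem site of each iron-containing carrier is shown first. Its pattern differs between the ferredoxins, PETC and the cytochromes c, and not every marked codon need stand for a residue that binds iron itself. The stretches are coding sequence of the TAIR10.1 assembly from RefSeq, read 5′ to 3′ on the strand of the gene. Capitals mark cysteine codons and, in PETC and the cytochromes c, also histidine codons. In the ferredoxins the stretch covers 3 cysteines of the cluster site, a pattern found 1 time in each of the 5 predicted proteins. The stretch of FDC2 is joined across an intron and carries 1 further cysteine codon.
FD1 (chr1:3664715-3664741, + strand): TGCcgtgccggttctTGCtcaagtTGC
FD2 (chr1:22444835-22444861, + strand): TGCcgtgctggttctTGTtcgagcTGT
FD3 (chr2:11758431-11758457, - strand): TGCagagccggtgcgTGTtctactTGC
FDC1 (chr4:8521151-8521177, + strand): TGCaatctcggtgttTGTatgactTGT
FDC2 (chr1:11773191-11773476, - strand): TGCaggcatggtTGTTGTactagtTGT
PETC (chr4:1441414-1441431, + strand): TGCactCATcttggaTGT
CYTC-1 (chr1:8079450-8079464, + strand): TGTgctcagTGTCAC
CYTC-2 (chr4:6277149-6277163, + strand): TGCgctcagTGTCAC

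Over these 27 bases FD1 and FD2 differ at 5 positions, FD2 and FDC2 at 8 and FD2 and FDC1 at 11. The haem-binding codons of the 2 cytochromes c differ at 1 of 15 bases. Over whole coding sequences, FD1 and FD2 were identical at 80.5% of 446 aligned bases, CYTC-1 and CYTC-2 at 83.2% of 339 and FNR1 and FNR2 at 75.7% of 1082. The longest identical run between the transcripts of a pair was 23 bases for the leaf ferredoxins, 20 for the cytochromes c and 17 for the reductases. A read longer than such a run holds at least 1 base that differs between the paralogs. Read length is not stated in the labels. FD1, FD2 and FDC1 each consist of 1 exon, whereas both cytochrome c genes have 3 exons and both FNR genes 9.

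Values are given as deposited, as log2(FPKM + 1), where FPKM is the number of sequenced fragments scaled by transcript length and library size, and log2 ratios are differences taken as bts-1 minus Col-0. The sorted values of both libraries lie within 0.001 of each other at 99.1% of ranks, as after quantile normalization, so a ratio says how a gene stands against the rest of its library. The table used here holds FPKM and no counts, which leaves read depth unknown and counting error without an estimate. BTS itself (AT3G18290) stood at 10.84 in Col-0 and 9.57 in bts-1, a log2 ratio of -1.27. On chromosome 3, and not clearly on the others, Col-0 levels went with how long the following gene is, with a slope of -0.56 (SE 0.04) where other chromosomes had -0.02 to 0.05. Levels of chromosome 3 genes are therefore in doubt. No member lies on that chromosome. For genes on it (AT3G identifiers) only ratios are given below, except for BTS, a sum over root markers and a distance that uses the level of PYK10. The tissue label was checked against 6 leaf markers, all of which were detected, from 6.82 for GLK2 to 12.41 for RBCS1A in Col-0, with log2 ratios of -0.32 to 0.29.

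Of the 10 electron carrier genes, 0 were higher and 0 were lower in bts-1 by 2-fold or more, sizes that 1.92% and 3.63% of the 18510 tested genes reached. A gene was tested when its FPKM was at least 1 in either library, which held for all 10 members. At a smaller size, a log2 ratio of 0.32 in either direction, 1 member (FD2) was higher and 4 (FD1, FD3, CYTC-1 and CYTC-2) were lower, against 21.0% and 18.3% of tested genes. At 1.5-fold, CYTC-2 was the 1 member lower and 0 were higher, against 9.32% and 7.53%. Ratios ran from -0.95 to 0.40, with a median of -0.06, beside a median of 0.04 over all tested genes. The ratio was positive for 5 members and negative for 5, or for 4 and 6 once ratios were centred on the nuclear median, under which that of FNR1 was -0.00379. The members' shares past each size, from 0 to 4 of 10, are too few for a comparison with these backgrounds.

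**Figure D1:**
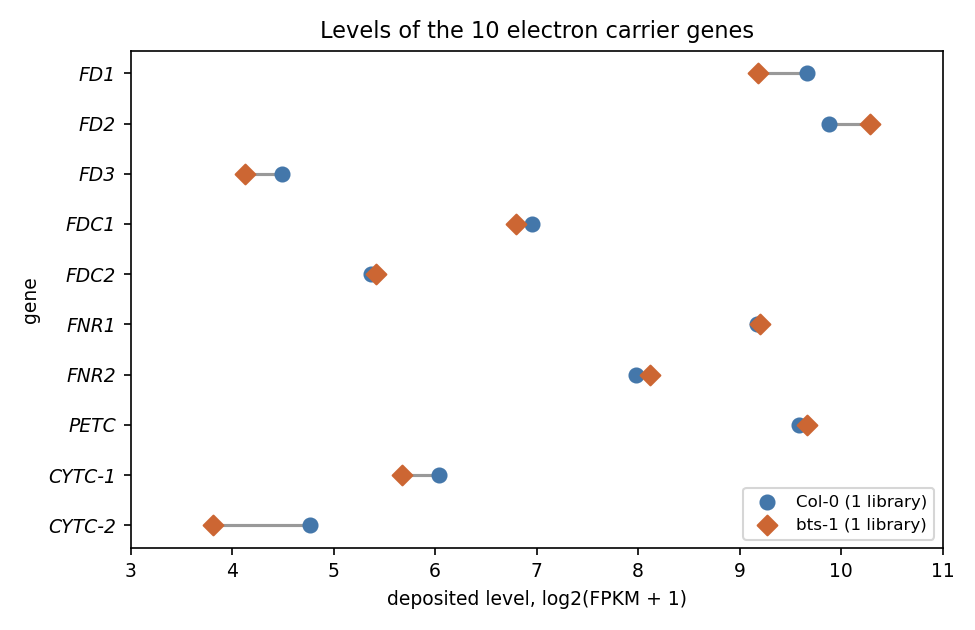
Deposited level, log2(FPKM + 1), of each electron carrier gene in the Col-0 library (circles) and the bts-1 library (diamonds), joined by a line. FD1 and FD2 differ in opposite directions, CYTC-2 has the longest line (4.77 to 3.82), and FNR1, PETC and FDC2 nearly coincide; with 1 library per genotype there are no error bars.

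The leaf ferredoxin genes went in opposite directions. FD2 (AT1G60950, listed as FED A), which encodes the major ferredoxin of leaves, stood at 9.88 in Col-0 and 10.28 in bts-1, a log2 ratio of 0.40. FD1 (AT1G10960), which encodes the minor leaf ferredoxin, stood at 9.67 and 9.18, a log2 ratio of -0.49. In Col-0 the 2 genes were close, with FD2 at 942 FPKM and FD1 at 812, a ratio of 1.16. In bts-1 they stood at 1246 and 578 FPKM, a ratio of 2.16. The FD2 share of their summed FPKM was thus 53.7% in Col-0 and 68.3% in bts-1. The sum itself hardly differed, at 1754 FPKM in Col-0 and 1824 in bts-1, which is 3.97% higher. In both libraries FD2 ranked above FD1, and the gap between them was wider in bts-1. Among 116 tested nuclear genes within 0.5 of the mean log2 level of FD1, 6.03% had a ratio as low or lower. Among 70 genes within the same distance of FD2, 7.14% had a ratio as high or higher. Such gene shares describe these libraries and do not replace replicates.

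Of the other ferredoxins, FD3 was lower in bts-1 and the FDC genes differed less. FD3 (AT2G27510), the root-type ferredoxin of non-photosynthetic plastids, stood at 4.49 in Col-0 and 4.13 in bts-1, a log2 ratio of -0.37. It made up 1.11% of the summed FPKM of the 5 ferredoxins in Col-0 and 0.827% in bts-1. Among nuclear genes of a like level, 13.5% of 3677 had a ratio as low or lower. Of 8 root markers, 4 have a row and 3 were tested (PYK10, CASP1 and PHT1;1), with positive ratios of 0.13 to 0.56, where 54.8% of all tested genes had a positive one. The summed FPKM of those 3 was 1069 in Col-0 and 1175 in bts-1, nearly all of it from PYK10 on chromosome 3. MYB36 was below the minimum, at 0.92 and 0.88, and PIN2, WOX5, LBD16 and NRT2.1 have no row and were not analysed here. CASP1 was also near the low end, at 0.91 and 1.33. The part of root tissue in the FD3 value was not tested. In shoots taken as a whole, fewer cells of a type and less RNA per cell cannot be told apart.

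FDC1 (AT4G14890), a ferredoxin with an extended C terminus, stood at 6.96 in Col-0 and 6.79 in bts-1, a log2 ratio of -0.16. FDC2 (AT1G32550), the other ferredoxin with such an extension, stood at 5.37 and 5.42, a ratio of 0.05. FDC1 was the third most abundant ferredoxin transcript in both libraries, at 123 and 110 FPKM (109.8 before rounding). The value of FDC1 is uncertain, because 100% of its locus lies within that of AT4G14900. This FRIGIDA-like gene on the opposite strand stood at 5.77 and 6.02. The library kit keeps strand, but no label says whether reads were counted by strand. A smaller overlap touches FD1, whose first 78 bases are shared with the end of TMN1 (AT1G10950) on the same strand. TMN1 stood at 5.77 in Col-0 and 6.12 in bts-1, the opposite direction to FD1.

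The ferredoxin reductases and the Rieske protein differed little between the libraries. FNR1 (AT5G66190), a leaf reductase of the thylakoid and stroma, stood at 9.17 in Col-0 and 9.20 in bts-1, a log2 ratio of 0.03. FNR2 (AT1G20020), the second leaf isozyme, stood at 7.98 and 8.12, a ratio of 0.13. FNR1 held 69.5% of their summed FPKM in Col-0 and 68.0% in bts-1, so the make-up of this pair was nearly the same in both libraries, unlike that of the leaf ferredoxins. FNR1 shares 191 bases of its locus with AT5G66180 on the opposite strand, a methyltransferase domain gene listed at 2.96 and 3.36, far below FNR1 itself. PETC (AT4G03280), the Rieske subunit of cytochrome b6f, stood at 9.59 in Col-0 and 9.66 in bts-1, a ratio of 0.08. Among 92 nuclear genes of a like level, 29.3% had a ratio as high as that of PETC or higher, and 37.3% of 118 did for FNR1. Counted in either direction, the shares were 66.3% for PETC and 83.9% for FNR1. By that measure they were 12.1% for FD1, 14.3% for FD2, 26.4% for FD3, 25.7% for CYTC-1 and 3.57% for CYTC-2. The transcript of FD2 per transcript of FNR1, as a ratio of FPKM, was 1.64 in Col-0 and 2.12 in bts-1.

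**Figure D2:**
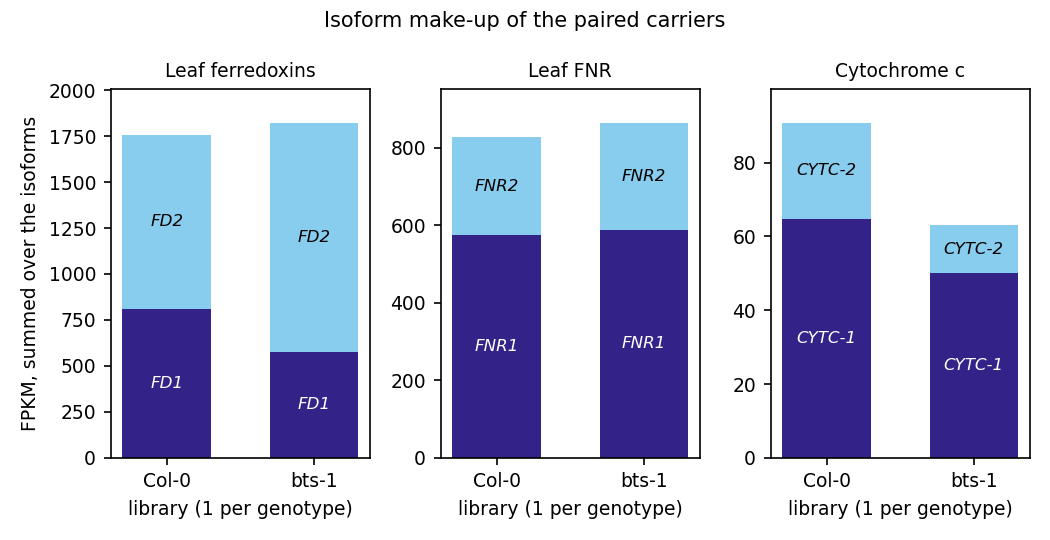
FPKM of the isoforms of leaf ferredoxin, leaf FNR and cytochrome c, stacked for the Col-0 and the bts-1 library on linear axes that start at 0 and differ between panels. The ferredoxin and FNR sums are 3.97% and 4.66% higher in bts-1 while FD2 takes a larger share of the first, and the cytochrome c sum is 90.9 FPKM in Col-0 and 63.1 in bts-1.

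The cytochrome c genes were both lower in bts-1. CYTC-2 (AT4G10040) stood at 4.77 in Col-0 and 3.82 in bts-1, a log2 ratio of -0.95, the farthest from 0 among the 10 members. CYTC-1 (AT1G22840) stood at 6.04 and 5.67, a log2 ratio of -0.36. As FPKM, CYTC-2 was at 26.2 and 13.1 and CYTC-1 at 64.6 and 50.03. Without the added 1, an alternative chosen after the data were seen, the bts-1 FPKM of CYTC-2 was 0.499 of that in Col-0 and so just past 2-fold, a size that 5.64% of 18460 genes with FPKM above 0 in both libraries reached in that direction and 3.97% in the other. Together the pair stood at 90.9 FPKM in Col-0 and 63.1 in bts-1, a log2 ratio of -0.53. CYTC-1 held 71.2% of that sum in Col-0 and 79.3% in bts-1. Among 3701 nuclear genes within 0.5 of the mean level of CYTC-2, 2.78% had a ratio as low or lower, and the 5th and the 95th percentile of their ratios were -0.72 and 0.53. For CYTC-1 the share was 13.8% of 1851 genes. CYTC-1 overlaps 93 bases of AT1G22850 on the opposite strand, listed at 7.52 and 7.20, and 484 bases of the antisense non-coding gene AT1G05773, which has no row and was not analysed here. No annotated gene overlaps CYTC-2.

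**Figure D3:**
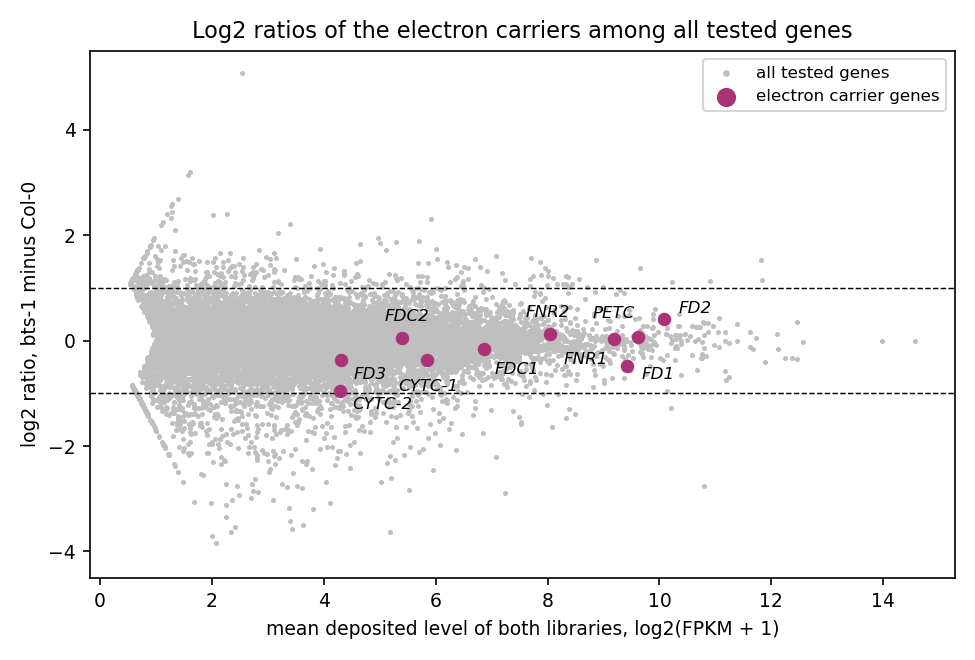
Log2 ratio (bts-1 minus Col-0) against the mean deposited level of both libraries for 18510 tested genes (grey) and the 10 electron carriers (labelled), with dashed lines at 2-fold. CYTC-2 lies just inside the lower line at -0.95, and the photosynthetic carriers sit at high levels between -0.49 (FD1) and 0.40 (FD2).

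For the cytochrome c genes, the 140 bases before their annotated starts are shown. Capitals mark matches on either strand to TGGGCC or TGGGCT, the forms of the site II element known from plant promoters of cytochrome c and other mitochondrial protein genes.
CYTC-1 (TAIR10.1, chr1:8079147-8079286, + strand): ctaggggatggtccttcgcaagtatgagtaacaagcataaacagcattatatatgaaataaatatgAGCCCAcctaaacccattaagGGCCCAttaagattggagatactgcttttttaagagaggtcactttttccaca
CYTC-2 (TAIR10.1, chr4:6276808-6276947, + strand): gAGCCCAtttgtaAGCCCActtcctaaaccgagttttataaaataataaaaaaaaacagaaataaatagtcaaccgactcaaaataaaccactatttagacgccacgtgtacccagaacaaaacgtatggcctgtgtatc

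Each of these windows holds 2 such matches, while 15.1% of 27437 windows of that length before protein-coding genes hold at least 1 and 9.26% hold at least 2. Of the 10 members 4 have a match, the others being PETC with 4 matches, which differed little, and FNR1 with 2, in a window that overlaps a neighbouring gene. Both strands of TGGGCC and TGGGCT were searched, and their matches may overlap each other. The G-box CACGTG, the same on both strands, occurs 1 time before CYTC-2, 2 times before FDC2 and in 4.60% of all windows. A match is a string of letters and not a bound site. Site II is known from cytochrome c promoters, so its presence before CYTC-1 and CYTC-2 is no independent result. Any bearing of the matches on the ratios was not tested.

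Placed in order of level, the Col-0 library ran FD2, FD1, PETC, FNR1, FNR2, FDC1, CYTC-1, FDC2, CYTC-2 and FD3. In bts-1 the order was FD2, PETC, FNR1, FD1, FNR2, FDC1, CYTC-1, FDC2, FD3 and CYTC-2. FD1 thus held the second place in Col-0 and the fourth in bts-1, and CYTC-2 the ninth and the tenth. Among all named genes, FD1 ranked 112 from the top in Col-0 and 171 in bts-1, and FD2 87 and 65. These ranks, and the shares among genes of a like level above, include chromosome 3 genes placed by levels that are in doubt. Without replicates it cannot be said which neighbours in these orders differ. The nuclear genes closest to FD2 in both values were PSAD-2 (AT1G03130), a photosystem I subunit on the stromal side, PYK10 (AT3G09260), whose chromosome 3 level is in doubt, and PSAH2 (AT1G52230), another photosystem I subunit, at distances of 0.14 to 0.23 on the log2 scale. Closest to CYTC-2 were CORI3 (AT4G23600), a cystine lyase, SQE6 (AT5G24160), a squalene monooxygenase, and the uncharacterised AT2G17300, at 0.05 to 0.07. Likeness over 2 libraries is a weak measure.

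The genes around these carriers were followed in 5 lists of 42 genes in all, of which 0 tested genes were past 2-fold in either direction, beside 1.92% higher and 3.63% lower over all tested genes. With so few genes a count of 0 lies near that background. The remaining ferredoxins and root-type reductases had a median of -0.26 over 4 tested genes, with 4 ratios negative, where 54.8% of all tested genes had a positive ratio; 4 genes are too few to set this list apart. MFDX1 (AT4G05450), a mitochondrial ferredoxin, stood at 3.25 in Col-0 and 2.52 in bts-1, a ratio of -0.73, and MFDX2 (AT4G21090), the other one, at 3.63 and 3.29. The root-type reductase gene RFNR1 (AT4G05390) stood at 3.68 and 3.50 and RFNR2 (AT1G30510), outside the naming rule and given to complete the list, at 3.71 and 3.65. FD4 has no row and was not analysed here. Among them 2 of 4 had a log2 ratio of -0.32 or lower, beside 18.3% of all tested genes.

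Enzymes that take electrons from ferredoxin were spread around 0, with 5 of 10 ratios positive and a median of 0.02. FTRA2 (AT5G08410) and FTRA1 (AT5G23440), variable subunits of ferredoxin-thioredoxin reductase, were at 0.37 and 0.25. CAO (AT1G44446), which makes chlorophyll b, stood at 7.75 in Col-0 and 8.11 in bts-1. Nitrite reductase (NIR1, AT2G15620), named after its value was seen, had the lowest ratio of the list at -0.23. The genes for FNR tethers and ferredoxin-dependent cyclic electron flow had a median of -0.03 over 5 genes. TIC62 (AT3G18890) and TROL (AT4G01050), which bind FNR to membranes, had ratios of -0.34 and -0.24, and PGRL1B (AT4G11960), of cyclic flow, had 0.09. The tethers were thus farther from 0 than FNR1 and FNR2, although none of these ratios reached 1.5-fold.

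Plastocyanin and the nuclear factors of cytochrome b6f had a median of 0.00 over 11 genes, with ratios of -0.19 to 0.40. Of the factors that attach a haem to cytochrome b6, CCB2 (AT5G52110) and CCB4 (AT1G59840) had 0.40 and 0.34, while CCB1 (AT3G26710) and CCB3 (AT5G36120), named after their values were seen, had -0.19 and 0.00. In the same list the small subunit gene PETM (AT2G26500) had 0.26. Nuclear partners of cytochrome c in mitochondria had a median of -0.03 over 10 tested genes, with ratios of -0.30 to 0.30. HCC1 (AT3G08950), outside the naming rule and given to complete the list, was below the minimum level and had a ratio of -0.12. Its exclusion rests on a chromosome 3 level that is in doubt, and without the minimum the median was -0.06. GLDH (AT3G47930), which passes electrons to cytochrome c in ascorbate synthesis, had -0.30, CCMH (AT1G15220), of cytochrome c maturation, had 0.30, and the Rieske gene UCR1-2 (AT5G13440) of complex III had -0.28. Of the 10 tested partners, 0 had a log2 ratio of -0.32 or lower, beside 18.3% of all tested genes, so this count does not set the partners apart.

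The nuclear carriers were set beside the subunits that the organelle genomes encode for the same complexes, a set chosen with their values known. PETC, at a ratio of 0.08, belongs to the complex whose plastid-encoded subunits petA, petB, petD, petG, petL and petN had ratios of 1.02 to 1.56. Their summed FPKM was 632 in Col-0 and 1552 in bts-1, against 767 and 808 for PETC. PETC thus stood above that sum in Col-0 and below it in bts-1, in FPKM that need not compare between plastid and nuclear transcripts. psaC (ATCG01060), the plastid-encoded iron-sulfur subunit of photosystem I that hands electrons to ferredoxin, stood at 5.80 and 7.10, a log2 ratio of 1.31. In the same set psaA (ATCG00350) and psaB (ATCG00340) had 1.23 and 1.24. The summed FPKM of FD1, FD2, FD3, FDC1 and FDC2 had a log2 ratio of 0.04, and that of FD1 and FD2 alone had 0.06. On the mitochondrial side, cox1 (ATMG01360), cox2 (ATMG00160) and cox3 (ATMG00730), subunits of the oxidase that cytochrome c feeds, had ratios of 1.14, 0.67 and 0.82. CYTC-1 and CYTC-2 went in the opposite direction. The cob gene (ATMG00220) has no row and was not analysed here. Ratios over all organelle genes are not given here, so these values do not set the chosen subunits apart from other organelle genes. Whether RNA of the organelles and of the nucleus was captured alike, within a library or between the libraries, was not tested.

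**Figure D4:**
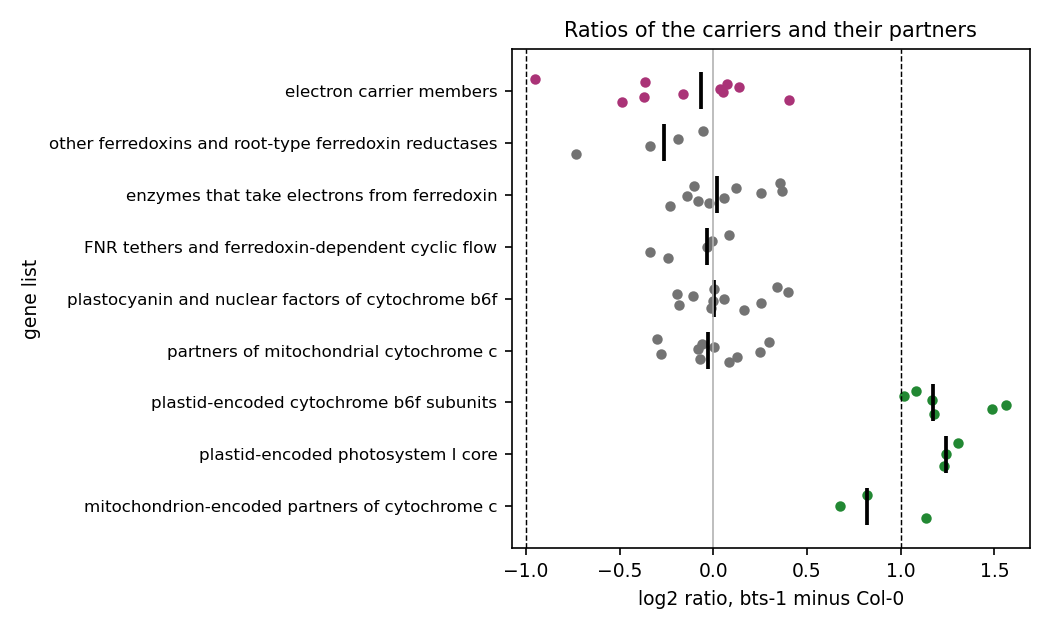
Log2 ratio (bts-1 minus Col-0) of each tested gene, one row per list: the 10 carriers (purple), the lists of nuclear partners (grey) and the organelle-encoded partners (green); black bars are medians and dashed lines mark 2-fold. The carriers and nuclear partners lie between -0.95 and 0.40, and the plastid-encoded subunits lie between 1.02 and 1.56.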

How the data were processed

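Total RNA of shoots was sequenced from 1 Col-0 and 1 bts-1 library with a strand-keeping kit, per the labels' protocols. Tools listed in the submitters' processing notes are HTSeq 0.9.1, TopHat2 2.1.0, Bowtie, cutadapt 1.12 and CASAVA 1.8.2, with TAIR10 as build and no settings. The authors deposited 1 value per gene and library, named normalized FPKM and read here as log2(FPKM + 1) from its range. The step that equalised both distributions is recorded in no label. Of 18617 rows, 2 with neither symbol nor description were left out (4.33% and 4.34% of summed FPKM). Ratios are differences of the deposited log2 values, and FPKM was obtained by undoing the log. With 1 library per genotype no test was run. Genes are named by a rule: all 10 members, and in each list those past 2-fold plus up to 3 with the largest absolute ratios, plus the 3 genes nearest to FD2 and to CYTC-2. The members and lists were chosen with earlier results of these data known. Gene models and sequences come from RefSeq on TAIR10.1 (10 of 10 members matched by locus tag), and their coordinates are on that assembly because the files give none. The counting of genes past a threshold was tested on simulated data. Python 3.11.15, NumPy 2.4.6, pandas 2.3.3 and Biopython 1.88 were used. Alternatives were pseudocounts of 0.1 and 5, other minimum levels and fold thresholds, means, and 2 rescalings. A further marker gene is not reported here.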

Additional observations from a re-analysis of the deposited data

How the results depend on the processing

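Ratios were called unmoved when they shifted by less than 0.1 on the log2 scale and counts when they stayed within 1.5 times. Of 50 member ratios under alternatives 1 moved, that of CYTC-2, to -0.79 with a pseudocount of 5, and of 25 list medians 0 moved. The counts of members past 2-fold, 0 higher and 0 lower, became 1 higher and 4 lower at a log2 ratio of 0.32, 1 lower at 1.5-fold and 1 lower with no pseudocount, an alternative chosen after the data were seen. Over all tested genes, 356 were at least 2-fold higher and 672 lower. The higher count was 735 with a pseudocount of 0.1, 101 with 5, 198 at a minimum FPKM of 5, 3889 at a log2 ratio of 0.32 and 1394 at 1.5-fold. The lower count was 997 with a pseudocount of 0.1 and 464 at a minimum FPKM of 5, both within 1.5 times. It was 254 with a pseudocount of 5, 3391 at a log2 ratio of -0.32 and 1726 at 1.5-fold. These shifts follow from the construction of each setting. No paired analysis was possible because each genotype has 1 library. Without counts or replicates, neither counting error nor the spread between plants can be set against any ratio.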

Other observations

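The leaf ferredoxin genes each stand directly before a gene of the ZIP family of metal transporters, noticed after the data were seen. ZIP4 (AT1G10970), annotated as a zinc transporter, begins 46 bases after FD1 and stood at 1.03 in Col-0 and 1.28 in bts-1, a log2 ratio of 0.25. IRT3 (AT1G60960), annotated as an iron transport protein, begins 7 bases after FD2 and stood at 2.01 and 2.21, a ratio of 0.20. Both neighbours were thus slightly higher in the bts-1 library, at levels far below the ferredoxins, while FD1 and FD2 had ratios of opposite sign. Whether reads that run past the end of a ferredoxin gene enter these values was not tested.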
